A study of Rattus norvegicus with 11 samples.

Results

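The microRNAs miR-199a and miR-214 come from neighbouring genes on rat chromosome 13 and were followed here in pancreatic islets of suckling and adult rats. The members were chosen by name alone: sense rows of miR-199a, miR-199b and miR-214, and rows of miR-3120 on either strand. This gave 5 of the 950 rows of the count table (898 distinct names), namely 2 sense rows of miR-199a, 2 antisense rows of miR-3120 and 1 sense row of miR-3120. The number of rows named for miR-199b or miR-214 was 0, so miR-214 is described only through reads counted antisense to miR-3120, which lies on the opposite strand of the same gene.

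Islets, the hormone-secreting clusters of the pancreas, were taken from Sprague-Dawley rats at postnatal day 10 (P10, 5 libraries) and from males aged 3 months (adult, 6 libraries), and all animals served as controls without a named treatment. Sex was not used for the pups, so a difference of age and one of sex cannot be told apart. The labels call the libraries biological replicates but do not say whether animals were pooled. Small RNA was sequenced, and each row gives the reads of 1 mature miRNA arm (5p or 3p, from the left or right side of the precursor hairpin) at 1 position. Library totals ran from 1432929 to 4483017 counts.

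In mammals the miR-199a-2 and miR-214 hairpins are cut from 1 long noncoding transcript, Dnm3os, which runs antisense inside an intron of the dynamin gene Dnm3 and is switched on by the mesenchymal transcription factor TWIST1. Both miRNAs are known from fibroblasts, pericytes, developing skeleton and activated stellate cells of liver and pancreas. miR-199a-5p is known to repress caveolin 1 and HIF1A, miR-199a-3p to repress MET and MTOR, and miR-214-3p to repress EZH2. miR-3120 is a mirror miRNA: it is made from the strand opposite to miR-214, in the direction of Dnm3 itself, and is known from neurons. In the RefSeq gene table (GRCr8), Mir199a2, Mir214 and Mir3120 all lie within the span of Dnm3.

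The mature sequences show what each name stands for, and 2 of the 5 rows had a RefSeq mature entry of exactly their name. They are given below in RefSeq's spelling (GRCr8), 5′ to 3′, with the seed (bases 2 to 8, the part that pairs with targets) in capitals. miR-199a and miR-214 are on the plus strand of chromosome 13, and miR-3120 is on the minus strand.
miR-199a-5p: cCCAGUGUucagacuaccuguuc
miR-199a-3p: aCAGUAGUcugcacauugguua
miR-214-5p: aGAGUUGUcaugugucu
miR-214-3p: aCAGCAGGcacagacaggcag
miR-3120: cACAGCAAguguagacaggca
The 5 seeds differ from one another, and none is shared with another of the 693 mature names in the RefSeq table. The members are thus tied by position on the chromosome, not by a common seed.

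The miR-214 hairpin shows why the antisense rows of miR-3120 bear on miR-214. It is printed with 2 stretches in capitals, first the exact complement of mature miR-3120 (bases 28 to 48) and then mature miR-214-3p (bases 69 to 89).
Mir214 hairpin: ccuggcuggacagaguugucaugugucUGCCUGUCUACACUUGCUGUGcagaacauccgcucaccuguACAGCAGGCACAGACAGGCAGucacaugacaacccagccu
Of the 108 bases of this hairpin, 106 are also covered by the Mir3120 hairpin on the other strand. RefSeq's miR-214-5p (bases 12 to 28) shares only 1 base with the complement of miR-3120.

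In the files (Rnor_5.0), miR-199a-5p lies at chr13:85019427-85019449 and miR-199a-3p at chr13:85019466-85019487, both on the plus strand. The miR-3120-3p rows lie at chr13:85024844-85024864 and the miR-3120-5p row at chr13:85024888-85024908, both on the minus strand. miR-3120-3p starts 5417 bases beyond miR-199a-5p, the same spacing as between these entries in RefSeq. The 2 miR-3120 rows start 44 bases apart, and in the hairpin miR-214-3p starts 41 bases after the complement of miR-3120. At these spacings the miR-3120-5p row covers 18 of the 21 bases of miR-214-3p. Reads antisense to miR-3120-5p therefore lie over the 3p arm of the miR-214 hairpin, and reads antisense to miR-3120-3p lie on its 5p side. How much overlap the authors asked of a read is not given in the sources used here, so these rows may hold only a part of the miR-214 reads. No other row lay within 10 kb of a member.

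**Figure D1:**
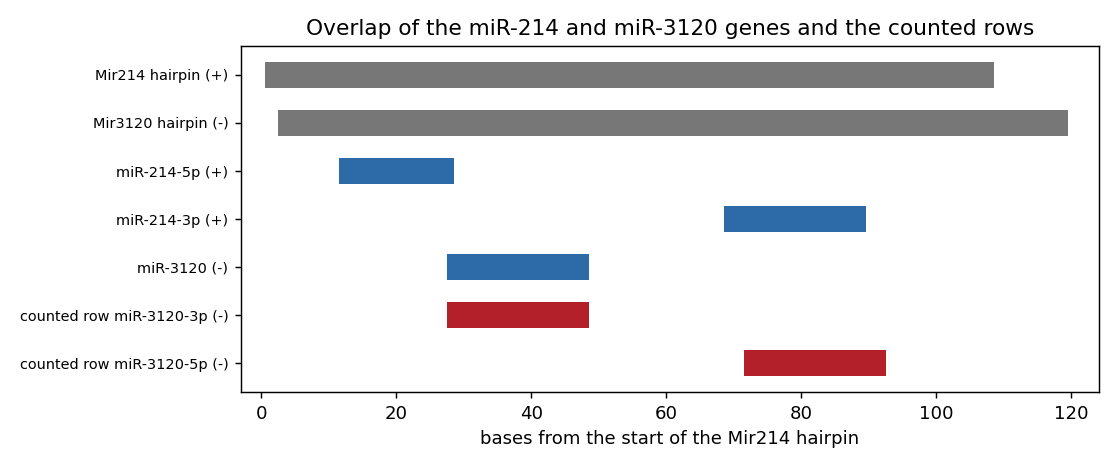
Positions within the miR-214 gene, in bases from the start of its hairpin, with the strand of each item in brackets. Grey bars are the RefSeq hairpins, blue bars the RefSeq mature miRNAs, and red bars the 2 counted rows of miR-3120, placed by their spacing in the files. The 3p row matches mature miR-3120, and the 5p row overlaps miR-214-3p on the other strand.

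miR-199a and the reads of the miR-214 strand were much lower in adult islets than at P10. Of the 5 rows, 4 passed the abundance filter, and all 4 fell, by 4.52-fold to 8.46-fold, with no overlap between the ages. The least abundant, antisense miR-3120-3p, passed that filter only through its P10 libraries. The miR-199a arms fell from 1237 to 255.3 CPM (the read count scaled to the size of its library) for 3p and from 575.3 to 88.1 CPM for 5p. The row over the miR-214 3p arm fell from 92.0 to 11.3 CPM. Over all 457 features tested with edgeR's quasi-likelihood test (Benjamini-Hochberg adjusted p under 0.05), 29.5% were lower and 21.2% higher in adults, 50.8% in either direction, whereas 4 of 4 members were lower and 0 higher. The members come from neighbouring hairpins and are not independent of one another, so the count of 4 is a description. With library totals alone in place of TMM scaling, 187 features were lower and 54 higher, against 135 and 97. P10 lay wholly above adult for 16.4% of the features and adult wholly above P10 for 13.6%. The median log2 fold change was -2.50 over the 4 members and -0.11 over all features.

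miR-199a-3p was the most abundant member. In the 5 P10 libraries (replicates 1, 3, 4, 5 and 6) it was at 1197, 1242, 1327, 1171 and 1251 CPM. In adults the lowest library held 129.2 CPM, the median was 204.5 CPM and the highest, replicate 1, held 559.6 CPM. The pups were thus nearly alike, and every adult library lay below all of them, the highest adult library included. Mean and SD were 1237 ± 59.6 CPM over the 5 pup libraries and 255.3 ± 153.8 CPM over the 6 adult ones. On the log2 scale adults minus P10 gave -2.28 ± 0.30 (SE), with an edgeR adjusted p = 3.59e-05. By mean CPM it stood at rank 58 of the tested features at P10 and at rank 114 in adults.

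miR-199a-5p, the other arm of the same hairpin, was at 568.5, 601.0, 606.5, 528.3 and 571.9 CPM in the P10 libraries. Its adult libraries ran from 58.0 to 190.5 CPM. Replicate 1 was again the highest adult library, and the next was at 86.7 CPM. Mean and SD went from 575.3 ± 31.2 CPM in the 5 pup libraries to 88.1 ± 51.2 CPM in the 6 adult ones. The log2 difference was -2.72 ± 0.29 (SE), with an edgeR adjusted p = 6.11e-06. This took it from rank 81 to rank 173 of the tested features.

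The row antisense to miR-3120-5p, over the miR-214 3p arm, was at 110.3, 98.8, 79.7, 88.1 and 83.4 CPM in the P10 libraries. Adult libraries ran from 6.11 CPM (replicate 2) to 24.6 CPM (replicate 1), with a median of 9.30 CPM. These adult values rest on 11 to 32 counts a library, against 147 to 401 at P10. For example, the 95% exact Poisson interval of adult replicate 1 was 16.4 to 35.3 CPM, which still ended far below the lowest pup. Pups averaged 92.0 ± 12.5 CPM (SD of 5) and adults 11.3 ± 6.90 CPM (SD of 6). The log2 difference, -3.08 ± 0.30 (SE) with an edgeR adjusted p = 3.41e-06, was the lowest of the 457 tested features. Another feature was nearly level with it, at -3.07 ± 0.44 (SE). The row antisense to miR-3120-5p stayed lowest or second lowest under every alternative that kept a filter on low counts. It was at rank 11 of 898 features without one.

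The row antisense to miR-3120-3p, on the 5p side of the miR-214 hairpin, was the least abundant tested member. It held at least 37 counts in a P10 library and 5 to 18 in an adult library. Too few adult libraries reached the abundance filter, so it entered the test only through its P10 libraries. Pups averaged 22.4 ± 3.43 CPM (SD of 5) and adults 4.97 ± 1.81 CPM (SD of 6), with 18.2 CPM in the lowest pup and 7.62 CPM in the highest adult library. It fell by 2.18 ± 0.24 on the log2 scale (SE), with an edgeR adjusted p = 7.57e-06.

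**Figure D2:**
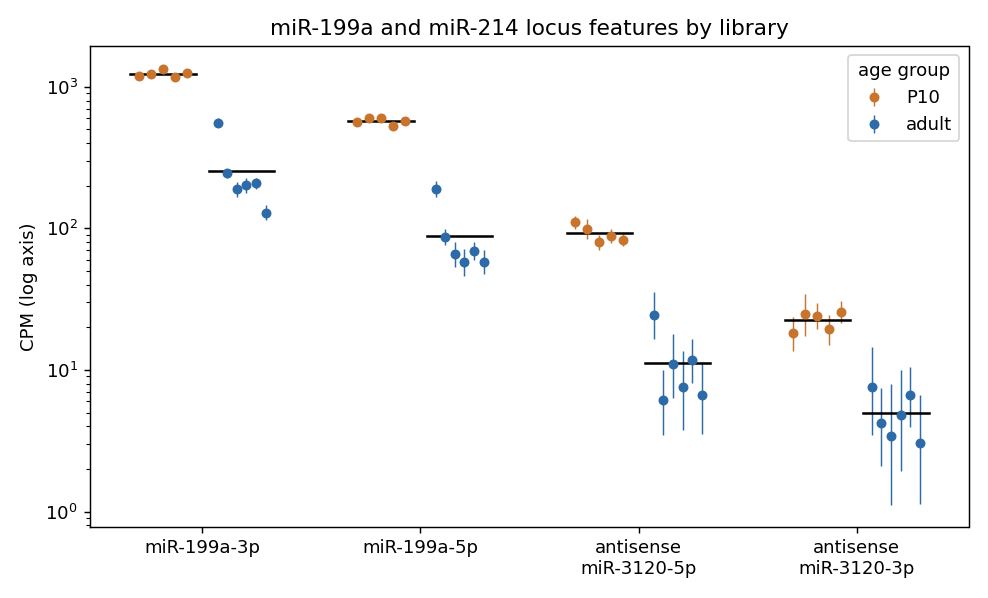
CPM (log axis) of the 4 tested members in each library, P10 in orange and adult in blue. Points are libraries in replicate order, bars are 95% exact Poisson intervals that cover counting error only, and black lines are group means. In every panel all adult libraries lie below all P10 libraries, and adult replicate 1 is the highest adult library.

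**Figure D3:**
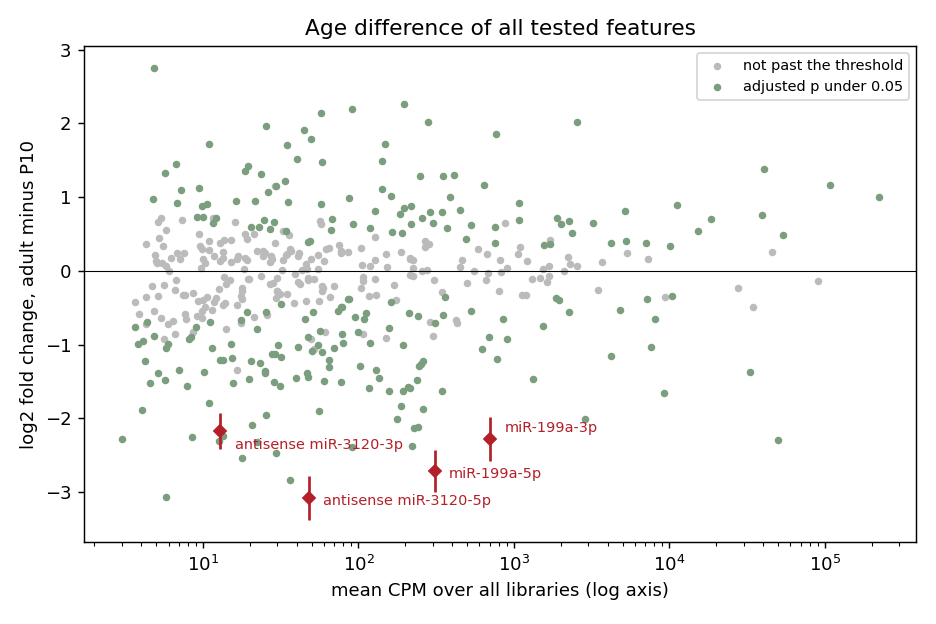
Log2 fold change (adult minus P10) against mean CPM (log axis) for the 457 tested features, with the 4 tested members as red diamonds with SE bars. Green points passed the edgeR test and grey points did not. The members lie between -2.18 and -3.08, at the lower edge of all features.

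Reads from the strand of miR-3120 itself were almost absent. Sense miR-3120-3p had 1 count in P10 replicate 6, 1 count in adult replicate 6 and 0 counts in the other 9 libraries, so it did not pass the filter and no age difference was read from it. Over all libraries 2 of 433 reads at this position were on the strand of miR-3120, which is 0.462% (95% exact Clopper-Pearson interval 0.0560 to 1.66%, counting error only). By age, 1 of 376 reads was sense in the pups (0.266%, exact interval 0.00673 to 1.47%) and 1 of 57 in the adults (1.75%, exact interval 0.0444 to 9.39%). Sense reads were thus a small minority at both ages, and the intervals overlapped.

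The 5p share of miR-199a was lower in most adult libraries, a difference that did not pass the test. At P10 5p made up 32.2, 32.6, 31.4, 31.1 and 31.4% of the reads of both arms. In adults it made up 22.4 to 26.2% in 5 libraries and 31.1% in replicate 6, which was level with the pups. The group means were 31.7% ± 0.643 (SD, n = 5) and 25.98% ± 2.83 (SD, n = 6). The log2 ratio of 5p to 3p differed by -0.40 ± 0.16 (SE; limma adjusted p over 145 precursors = 0.0830), and by -0.47 without adult replicate 6 (limma adjusted p = 0.0484). Leaving out any other single library, it did not pass (limma adjusted p from 0.0902 to 0.162). Of the 145 precursors with both arms tested, 28.3% passed. The 3p arm was the larger one in every library at both ages. An unnamed 3p row elsewhere in the genome, described below, kept a nearly constant ratio to miR-199a-3p. Whether the miR-199a-3p reads come from this hairpin alone was not tested.

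On the miR-214 strand the balance of the sides of the hairpin shifted between the ages. Reads antisense to miR-3120-5p, over the miR-214 3p arm, made up 85.9, 79.9, 76.8, 82.0 and 76.4% of the reads of both rows at P10. In adults this share ran from 59.3 to 76.3%, below every pup, though replicates 1 and 3 (76.3 and 76.2%) came within a point of the lowest ones. The log2 ratio of the 5p row to the 3p row was lower in adults, with a difference of -1.08 ± 0.24 (SE) and a limma adjusted p = 0.00586. The adult shares rest on 18 to 50 reads a library. The exact Clopper-Pearson interval of the 3p-row share in adult replicate 4, for example, ran from 17.3 to 64.3%.

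Of 3 ratios between products of the miR-199a and miR-214 hairpins, 2 differed between the ages. The first of them uses miR-199a-3p reads, and whether these come from the miR-199a hairpin alone was not tested. Nor was this tested for the miR-199a-5p reads of the other ratios. Per 100 miR-199a-3p reads there were 9.22, 7.96, 6.01, 7.52 and 6.66 reads antisense to miR-3120-5p at P10, and 2.50 to 5.82 in adults. The log2 difference was -0.72. A two-sided exact permutation test over the 462 ways to split the libraries gave p = 0.00866, or 0.0130 once adjusted for 3 ratios, with all adult libraries below all pups. Against miR-199a-5p, the same row was at 16.0 ± 2.37 reads per 100 at P10 (SD, n = 5) and 13.0 ± 3.68 in adults (SD, n = 6), which overlapped (log2 difference -0.31, exact permutation p = 0.193, adjusted p = 0.193), and the difference was -0.15 without adult replicate 2. The antisense miR-3120-3p row went the other way: it stood at 3.89 ± 0.495 per 100 miR-199a-5p reads at P10 (SD, n = 5) and 6.20 ± 2.21 in adults (SD, n = 6; log2 difference 0.68, exact permutation p = 0.00866, adjusted p = 0.0130). Here the groups overlapped, as adult replicate 1 (4.00) lay among the pups. The antisense miR-3120-3p row had passed the abundance filter only through its P10 libraries. Without P10 replicate 1 or without P10 replicate 5, both adjusted p-values that had passed came to 0.05, with log2 differences of -0.64 and -0.71 for the first ratio and 0.61 and 0.66 for the other. With no prior count the first ratio differed by -0.76 and the other by 0.61 (exact permutation, adjusted p = 0.0195 and 0.0292).

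**Figure D4:**
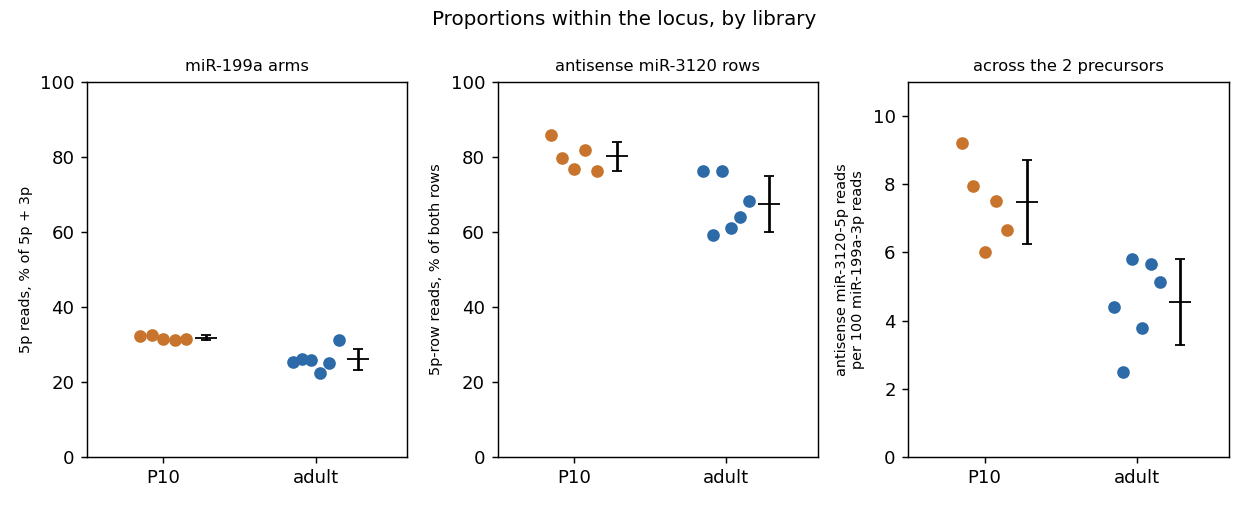
Proportions within the locus by library, with group mean and SD in black. The left panel gives the 5p share of miR-199a reads (%), the middle panel the share of the 5p row among reads antisense to miR-3120 (%), and the right panel reads antisense to miR-3120-5p per 100 miR-199a-3p reads. Adult values lie below all P10 values in each panel, by little. The highest adult values are 31.06% (replicate 6), 76.3% (replicate 1) and 5.82 (replicate 3), from left to right. The lowest P10 values are 31.10%, 76.4% and 6.01.

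Both miR-199a arms together took 0.201% ± 0.0193 of all counts at P10 (SD, n = 5) and 0.0309% ± 0.0159 in adults (SD, n = 6). This share uses library totals alone as its scale. The difference of -0.17 percentage points gave a two-sided exact permutation p = 0.00216, the smallest that 462 splits can give, and the groups did not overlap. Taken over TMM-adjusted library sizes, the difference was -0.15 percentage points, with the same exact permutation p. In bulk islets, fewer cells of a type and less miRNA per cell cannot be told apart.

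The spread of miR-199a was narrow in pups and wide in adults. The coefficient of variation of miR-199a-3p was 4.82% at P10, the lowest among 227 features of at least 50 CPM, whose median was 18.3%. In adults it was 60.2%, the third highest of the 227 (median 16.0%). miR-199a-5p had 5.43% and 58.1%. Adult replicate 1 held 2.88 times the mean of the other adults for miR-199a-3p, 2.82 times for miR-199a-5p and 2.85 times for the row over the miR-214 3p arm. Without it the adult coefficient of variation of miR-199a-3p was 21.6%, the mean 194.4 ± 42.0 CPM (SD, n = 5) and the log2 difference -2.66, with an edgeR adjusted p = 8.52e-08.

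The label mesenchymal was set beside other miRNAs of connective tissue and smooth muscle, from a list that left the members out. Of its 11 features 9 were tested, of which 4 fell, 1 rose and 4 did not pass, with a median log2 fold change of -0.63. Those that fell were miR-10b-5p, both arms of miR-145 and miR-152-5p, and the one that rose was miR-152-3p (log2 fold change 0.85). The summed level of the list was 92359 to 225057 CPM at P10 and 26283 to 92141 CPM in adults. Nearly all of this sum was miR-10b-5p (means 88972 CPM at P10, 18112 CPM in adults) and miR-143-3p (41024 and 29208 CPM). The muscle miRNAs miR-1 and miR-133a of the list were not analysed here. Adult replicate 1, highest for miR-199a, was also highest for this list among adults (92141 CPM, with the next at 56854 CPM). At P10 this did not hold: replicate 3 had 225057 CPM of the list, against at most 121650 CPM in the other pups, but 1242 CPM, the median pup value, for miR-199a-3p. The part of connective tissue content in the age difference was not tested.

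The 2 most abundant features of that list behaved differently beside miR-199a-3p. miR-143-3p, a miRNA of smooth muscle and fibroblasts, averaged 41024 ± 11398 CPM in pups (SD of 5) and 29208 ± 15073 CPM in adult islets (SD of 6), which overlapped and did not pass (log2 fold change -0.49, edgeR adjusted p = 0.174). It did pass when scaled by library totals alone (-0.76, edgeR adjusted p = 0.0188) or when adult replicate 1 was left out (-0.79, edgeR adjusted p = 0.00957). There were 3.17 ± 0.689 reads of miR-199a-3p per 100 of miR-143-3p at P10 (SD, n = 5) and 0.875 ± 0.188 in adults (SD, n = 6). The log2 difference of -1.85 went beyond the spread of the libraries (exact permutation p = 0.00216, adjusted p over 2 ratios = 0.00433; every pup above every adult). miR-10b-5p, from a Hox cluster, fell from 88972 ± 43401 to 18112 ± 9806 CPM (log2 fold change -2.30 ± 0.37, SE; edgeR adjusted p = 0.000231). Per 100 miR-10b-5p reads there were 1.58 ± 0.502 reads of miR-199a-3p at P10 (SD, n = 5) and 1.48 ± 0.440 in adults (SD, n = 6). That ratio did not differ beyond its spread (log2 difference -0.07, exact permutation p = 0.851, adjusted p = 0.851), and its sign changed when single libraries were left out. Both ratios were added after the values were seen.

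**Figure D5:**
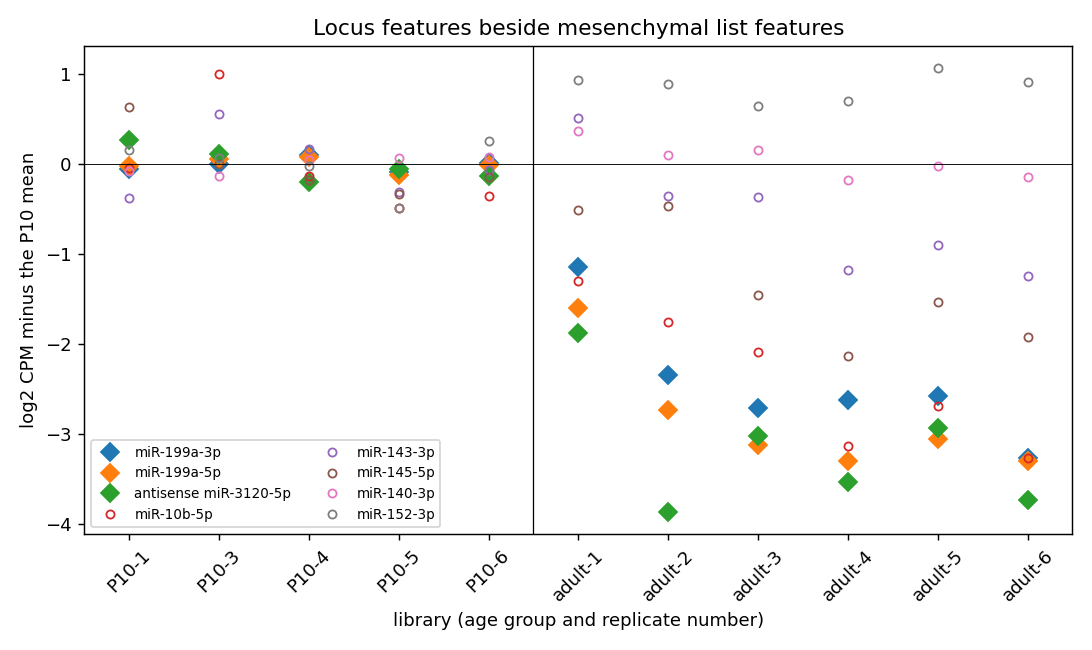
Log2 CPM minus the P10 mean of each feature, by library (age group and replicate number), for 3 members (filled diamonds) and 5 features of the mesenchymal and smooth muscle list (open circles). In adults the members lie between -1.14 and -3.86, near miR-10b-5p, while miR-140-3p stays near 0 and miR-152-3p is above it.

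Of the miRNAs known from fibrosis, other than the members, 3 of 8 tested features fell, 2 rose and 3 did not pass (median log2 fold change -0.21). miR-21-5p, raised in many fibrotic tissues, fell from 14603 ± 4095 to 4639 ± 1067 CPM (log2 fold change -1.65, edgeR adjusted p = 1.41e-05), and miR-192-5p, an epithelial miRNA studied in kidney fibrosis, fell less (-0.65, adjusted p = 0.00121). The miR-29b rows that rose belong to a family that represses collagen genes.

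Markers of other cells moved in both directions in the same libraries. In the endocrine list 5 of 7 tested features rose and 2 did not pass, led by miR-375-3p, the main islet miRNA (log2 fold change 1.01, edgeR adjusted p = 8.67e-06), and miR-7a-1-5p (1.30, adjusted p = 0.000762). Its summed level was 113604 to 166588 CPM at P10 and 252751 to 326109 CPM in adults, with the highest adult value in replicate 1. In the epithelial list 3 of 5 rose and 2 did not pass, with miR-141-3p (0.76) and miR-429-3p (0.64) the most abundant. In the acinar list, for the enzyme-secreting cells around islets, 2 of 3 rose, miR-217-5p (1.96) and miR-216a-5p (1.36), and 1 did not pass. Its sum was 22.2 to 37.7 CPM at P10 and 28.6 to 127.1 CPM in adults.

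In the leukocyte list 1 of 4 tested features fell, miR-150-5p of lymphocytes (-1.48, edgeR adjusted p = 0.00156), and 3 did not pass, among them miR-142-5p (-0.71, adjusted p = 0.162). The sum of that list was 681.2 to 1427 CPM at P10 and 249.0 to 832.5 CPM in adults. Neither of the 2 erythroid features passed, miR-451-5p (-0.32) and miR-144-5p (0.10), nor did the only tested neural and glial one, miR-219-1-3p (0.34). The endothelial list had 0 sense features and was not analysed here. The part of these cell types in the fall of miR-199a was not tested.

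The feature whose pattern was most like that of miR-199a-3p had no miRNA name, only the Ensembl transcript identifier ENSRNOT00000072773. Likeness was the root mean square difference in log2 CPM over the 11 libraries, each feature centred on its own mean, among 225 other features of at least 50 CPM. For the 3p row of this transcript it was 0.07, against 0.25 for miR-199a-5p itself. The row lies at chr3:16697118-16697139 on the plus strand (Rnor_5.0), and was at 391.4 ± 24.4 CPM in pups (SD of 5) and 76.0 ± 48.7 CPM in adults (SD of 6), a log2 difference of -2.38 ± 0.31 (SE).

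Per 100 reads of miR-199a-3p, this row had 31.7, 31.3, 32.0, 30.8 and 32.2 reads in the P10 libraries and 27.5 to 31.6 in adults. The 2 rows differed between libraries by less than sampling noise (chi-square 5.35 on 10 degrees of freedom). The closest of the other 224 features, miR-181c-3p, had a chi-square of 4.97 per degree of freedom. The 5p and 3p rows of the transcript start 39 bases apart and are 23 and 22 bases long, the same spacing and lengths as the 2 arms of miR-199a. Its 5p row had only 4.58 to 8.44 reads per 100 of miR-199a-5p. No genome sequence was used, so whether the 3p rows share a sequence, and hence reads, was not tested.

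The next in likeness were miR-100-5p (0.37), miR-181c-3p (0.39), miR-181d-5p (0.41) and miR-450a-5p (0.43). Their log2 fold changes were -1.84, -2.40, -2.13 and -2.01. Features chosen for likeness to a miRNA that fell with age are bound to be lower in adults, so these values, and those of the unnamed row, are a description with no test. miR-100-5p was at 307.9 ± 68.4 CPM in pups (SD of 5) and 86.6 ± 44.4 CPM in adults (SD of 6), with its highest adult value, 168.5 CPM, well below its lowest P10 value, 259.6 CPM. These features were more distant from miR-199a-3p than its own 5p arm was, and about as far as the antisense rows of miR-3120 (0.34 and 0.49).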

How the data were processed

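The deposited values are raw counts of reads for each miRNA arm and position, on Rnor_5.0 per the file headers (rn5 per the submitters' processing notes, which also name edgeR and DESeq without a role). The sources used here do not give the aligner, counting rule or annotation. Trizol was used for extraction and Illumina TruSeq small RNA kits for the libraries, per the labels' protocols. Ligation and PCR favour some sequences, and with no molecular identifiers named, a count is a read. The 11 per-library tables held the same counts as the series table.

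Where a name had several rows, the largest count in a library was used. In R 4.3.3, edgeR 4.0.16 was run over the whole table (filterByExpr, TMM, robust quasi-likelihood test of age), with Benjamini-Hochberg adjustment at 0.05. CPM use TMM-adjusted library sizes. Arm ratios were tested with limma 3.58.1 (prior count 2) and other ratios by exact permutation (prior count 0.5). The edgeR and limma fits were tested on simulated data, and the exact permutation test on a small made-up set of values. Intervals cover counting error only. All 25 pairs of same-age libraries differed by more than sampling noise (chi-square per degree of freedom at least 11.7).

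The members, marker lists and tests were chosen with earlier results of these data known. The planned ratios of miR-214 to miR-199a and of miR-3120 to miR-214 used the antisense miR-3120 rows, for want of rows of that name. Named features were the tested members, the 2 most abundant features of each list, and the 5 features of at least 50 CPM most like miR-199a-3p. The miR-145, miR-152, miR-140-3p and miR-29b names, and the 5p row of the unnamed transcript, were added after their values were seen. Mature and hairpin sequences are RefSeq's (GRCr8). Alternatives were other scalings, filters, DESeq2 1.42.0, limma-voom, summed rows, a replicate block and leaving out each library.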

Additional observations from a re-analysis of the deposited data

Results flagged for a closer look

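Adult replicate 1 stood apart from the other 5 adult libraries for several members: its gap to the nearest library took up an unusually large part of the group's range. It held 559.6 CPM of miR-199a-3p (others 129.2 to 244.8), 190.5 CPM of miR-199a-5p (others 58.0 to 86.7) and 24.6 CPM antisense to miR-3120-5p (others 6.11 to 11.8). miR-199a took 0.0619% of its counts (others 0.0178 to 0.0320%). The same library stood apart for the unnamed 3p row that tracks miR-199a-3p (ENSRNOT00000072773), at 173.6 CPM, for miR-143-3p, at 57190 CPM, and for miR-181d-5p, at 139.7 CPM. It had the smallest total, 1432929 counts.

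P10 replicate 3 stood apart for miR-10b-5p (165140 CPM, others at most 80346), miR-100-5p (426.2 CPM) and miR-181d-5p (600.3 CPM), but for none of the members. P10 replicate 1 stood apart for miR-451-5p (69.0 CPM). Chance marks about 1 in 20 groups, and 11 of 64 were marked here; features that share a library are not independent.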

How the results depend on the processing

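All 4 tested members kept their direction and their call under all 22 alternatives (log2 fold changes from -3.40 to -2.02, largest adjusted p 0.000820). Library totals alone shifted the median of all features by -0.26 and left 54 features higher (97 in the main analysis); upper-quartile scaling shifted it by 0.16. Leaving out single libraries gave 108 to 137 features lower and 86 to 97 higher. For arm usage it gave -0.47 to -0.34 for miR-199a and -1.20 to -0.95 for the antisense rows. It gave -0.80 to -0.56 for antisense miR-3120-5p to miR-199a-3p, -0.40 to -0.15 for antisense miR-3120-5p to miR-199a-5p, 0.55 to 0.80 for antisense miR-3120-3p to miR-199a-5p, and -0.32 to 0.039 for miR-199a-3p to miR-10b-5p.

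The replicate numbers gave little sign of pairing the libraries. Of 5 same-numbered pairs, 2 correlated above 0.1 (range -0.20 to 0.19), and 1 adult correlated best with its own number. So few pairs cannot exclude a shared preparation. The replicate block gave 112 features lower and 93 higher, with all 4 members among the lower ones. The block leaves out adult replicate 2, which has no P10 partner, and the ratios with it were the same as without that library and with no block. In 5 pairs the smallest permutation p is 0.0625, so no ratio tested by permutation could pass with the block. Those ratios were then -0.56, -0.15 (antisense miR-3120-5p to miR-199a-5p), 0.74, 0.032 (to miR-10b-5p, reversed) and -1.83 (to miR-143-3p), and the miR-199a share differed by -0.17 percentage points. With the block, the limma arm difference was -0.99 for the antisense rows (adjusted p = 0.0093) and -0.40 for miR-199a (adjusted p = 0.134). The log2 change of miR-144-5p reversed to -0.15 with library totals alone, -0.21 with the block, -0.15 without P10 replicate 1 and -0.28 without adult replicate 2, and that of miR-451-5p to 0.073 without P10 replicate 1. Over single libraries left out, these ranged from -0.28 to 0.30 and from -0.60 to 0.073. The cause of these changes was not tested. Depth limits the adult values of the antisense miR-3120-3p row, at 5 to 18 counts a library.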
